A study of Homo sapiens with 6 samples.

Results

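The genes described here moved in the same direction with 2 different siRNAs against LSD1 in MDA-MB231 cells, an established human line of triple-negative breast cancer. A gene was taken as higher when its CPM (the count scaled to the library total) in all 4 LSD1 siRNA libraries lay above both control values, and as lower when all 4 lay below both. Of 23368 genes in the table, 6422 met this rule, 3178 higher and 3244 lower. A filter on low counts left 13322 genes, of which 2930 were higher (22%) and 3052 were lower (22.9%). The other 440, of which 248 were higher and 192 lower, lay below the filter, which keeps a low gene more easily where it is high in 1 group. The members were chosen by these very values, so the differences from the control are given as a description, with no test against it.

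RNA-seq was run on 6 libraries, 2 each of cells transfected with a control siRNA (siControl), with siL1 or with siL2. All cells were grown in medium with 10% serum and received an siRNA through the same lipid reagent, and the labels give neither the siRNA sequences nor the time after transfection. The labels do not say whether the 2 libraries of a group came from separate cultures, so every error and p-value here measures only the spread between these libraries, which may be technical. Both siRNAs were set against the same 2 control libraries, so a control value that is low or high enters both changes.

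LSD1, encoded by KDM1A, is a flavin-dependent demethylase that removes methyl groups from lysine 4 of histone H3 when held at chromatin by CoREST, and it also works with the NuRD deacetylase complex. It is best known as a corepressor, and with some partners it acts at active genes. Loss of it can therefore be followed by higher and by lower transcripts, direct or secondary, and RNA levels alone do not separate these.

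KDM1A stood at 158 and 165 CPM with siControl, 27.7 and 28.1 with siL1, and 17.4 and 18.1 with siL2. Its log2 fold changes were -2.53 ± 0.054 with siL1 and -3.19 ± 0.057 with siL2 (SE), so the transcript was low in all 4 siRNA libraries. The libraries held 22047738 to 26765079 counts, and the upper limit set by a count of 0 (3 counts) was 0.112 to 0.136 CPM. VIM, CD44 and AXL, which mark the mesenchymal state of these cells, were abundant. The luminal genes ESR1 and PGR, the epithelial cadherin CDH1 and the basal keratin KRT5 were at or near 0. Other luminal or epithelial markers of the same list were present. With siControl, KRT8 stood at 236 and 238 CPM, KRT18 at 262 and 268, and ERBB2 at 59.8 and 54.2. EPCAM stood at 10.4 and 12.6 CPM, FOXA1 at 5.53 and 5.16, and GATA3 at 2.81 and 2.54. The summed CPM of 26 lineage markers was 9801 to 9999.6 in the controls, 9707 to 9711 with siL1 and 10339.8 to 10357 with siL2.

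Most shared changes were small. The shared change of a gene is here the smaller of its siL1 and siL2 fold changes. Of the 2930 higher genes, 1329 (45.4%) had a shared change below 1.2-fold, 993 (33.9%) between 1.2 and 1.5-fold, 421 (14.4%) between 1.5 and 2-fold and 187 (6.38%) of 2-fold and over. Of the 3052 lower genes the same classes held 2062 (67.6%), 851 (27.9%), 121 (3.96%) and 18 (0.59%). Large shared changes were thus mostly increases, while the smallest class held more decreases. The median log2 fold change of the higher genes was 0.41 with siL1 and 0.37 with siL2, and that of the lower genes was -0.28 and -0.26; over all tested genes the medians were -0.014 and -0.0036.

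As a second description of size against the spread between libraries, edgeR's quasi-likelihood test with adjustment over all 13322 genes called 1742 genes (13.1%) higher with both siRNAs and 1621 (12.2%) lower with both. Every gene it called with both siRNAs in 1 direction also met the rule, which used the same contrast. The authors' deposited table put 1250 genes higher and 1069 lower with both siRNAs at an adjusted p below 0.05. In the plot of both fold changes the members fill the upper right and lower left corners by construction.

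**Figure D1:**
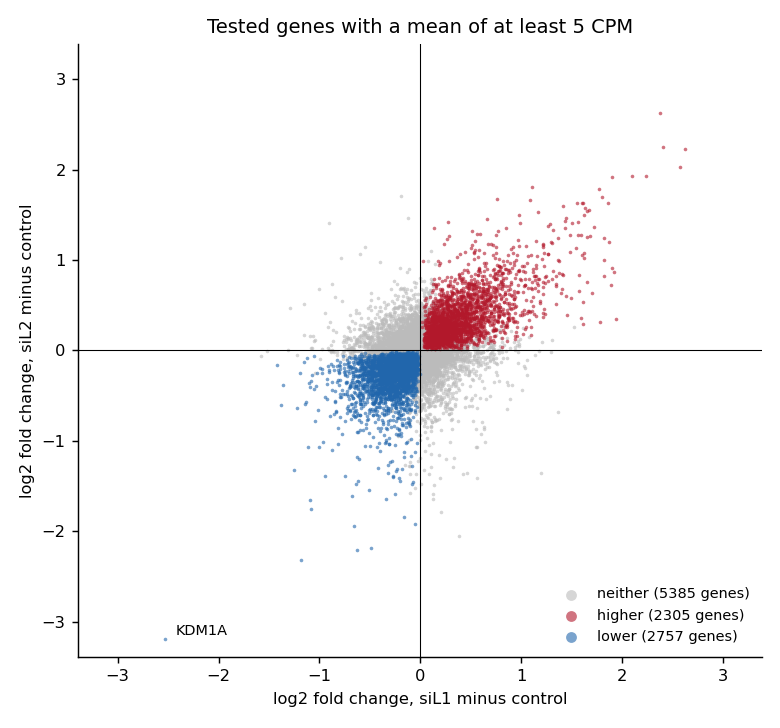
Each point is 1 tested gene that averaged 5 CPM or more, with its log2 fold change with siL1 (x axis) against that with siL2 (y axis), both against the same 2 control libraries. Red points (2305 genes) were higher and blue points (2757 genes) lower in all 4 siRNA libraries, grey points (5385 genes) were neither, and KDM1A is the blue point farthest to the lower left.

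At the edge of the rule, with a mean of at least 50 CPM, EXOC3 was just inside on the higher side, at 72.9 and 65.8 CPM with siControl against 76.2 and 74.5 with siL1 and 74.2 and 72.9 with siL2. SUCLG1 was just outside it, at 228 and 233 CPM with siControl, 249 and 235 with siL1, and 233 and 238 with siL2, since 1 siRNA library did not clear the higher control. On the lower side GARS was just inside, at 342 CPM in both libraries with siControl against 322 and 342 with siL1 and 281 and 293 with siL2, and TOMM40 just outside, at 204 and 219 CPM with siControl, 193 and 204 with siL1, and 171 and 176 with siL2. Genes this close to the edge change class with the scaling: EXOC3 was not higher under TMM scaling, and GARS was not lower under TMM scaling, DESeq2 size factors or upper quartile scaling.

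The 12 largest shared increases, with a mean of at least 5 CPM required, were in genes of various functions. PLSCR4, of the phospholipid scramblase family, stood at 3.67 and 3.56 CPM with siControl against 17.8 and 19.5 with siL1 and 23.9 and 20.6 with siL2. Its log2 fold changes were 2.37 ± 0.13 with siL1 and 2.62 ± 0.12 with siL2 (SE). TMEM87B, a Golgi membrane protein, stood at 11.1 and 11.3 CPM with siControl, 58.5 and 59.9 with siL1, and 56.3 and 50.8 with siL2. TMEM64, another membrane protein, stood at 18.3 and 18 CPM with siControl against 103 and 119 with siL1 and 85 and 85.8 with siL2, with siL1 above siL2. GPR17, a G protein-coupled receptor, stood at 3.04 and 3.85 CPM with siControl, 20.3 and 20.9 with siL1, and 15 and 13.2 with siL2, and its siL1 values were again the higher ones. SERPINB9, the intracellular inhibitor of granzyme B, stood at 5.67 and 5.21 CPM with siControl against 23.3 and 27.7 with siL1 and 20.8 in both libraries with siL2. CACNA2D1, an auxiliary subunit of voltage-gated calcium channels, stood at 1.77 and 1.99 CPM with siControl, 7.32 and 8.72 with siL1, and 6.99 and 7.43 with siL2, and its control values were the lowest of the 12 genes.

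UHMK1 showed the pattern at high abundance. This serine/threonine kinase stood at 121 and 116 CPM with siControl against 435 and 442 with siL1 and 439 and 455 with siL2, and its log2 fold changes were 1.89 ± 0.041 with siL1 and 1.91 ± 0.04 with siL2 (SE), so the 4 siRNA libraries lay close together and far above the controls. EFR3A, which holds a phosphatidylinositol kinase complex at the plasma membrane, showed the same at 87.6 and 85.1 CPM with siControl, 259 and 265 with siL1, and 269 and 267 with siL2. KIAA1324, STYK1, TP53INP1 and C8orf46 completed the 12 largest. STYK1, a receptor-like kinase, stood at 2.95 and 3.26 CPM with siControl against 10.5 and 11.1 with siL1 and 10.3 and 9.98 with siL2. TP53INP1, a stress-inducible protein of autophagy, stood at 3.63 and 3.30 CPM with siControl, 11.3 and 13.8 with siL1, and 10.4 and 11.1 with siL2.

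Sequence was looked at next to these values, because heptamers in the 3′ untranslated region (3′ UTR) had separated the genes in an earlier scan of the same libraries. The windows below show, for 5 of the largest shared increases, the heptamer TACATTT in capitals with 10 bases on each side, on the strand of the transcript, from GENCODE v29 on GRCh38; the authors counted on hg19. The positions are chr3:146193601-146193627 (minus strand) for PLSCR4, chr2:112117006-112117032 (plus strand) for TMEM87B, chr6:2889717-2889743 (minus strand) for SERPINB9, chr7:81948519-81948545 (minus strand) for CACNA2D1 and chr1:162522644-162522670 (plus strand) for UHMK1, all in the 3′ UTR.
PLSCR4: ttgcatttaaTACATTTatacataata
TMEM87B: cttggcatatTACATTTcataataaaa
SERPINB9: ttgtaaaatgTACATTTatattttatc
CACNA2D1: tagctttgcaTACATTTgtaattccct
UHMK1: aggtactttaTACATTTatttaatcct

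GPR17, KIAA1324, STYK1 and C8orf46 held neither this heptamer nor ACATTTA, its overlapping partner; the 2 are called the TACATTT pair below. The 5 printed genes were picked for holding it, which is a description of the windows and not of a site in use.

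**Figure D2:**
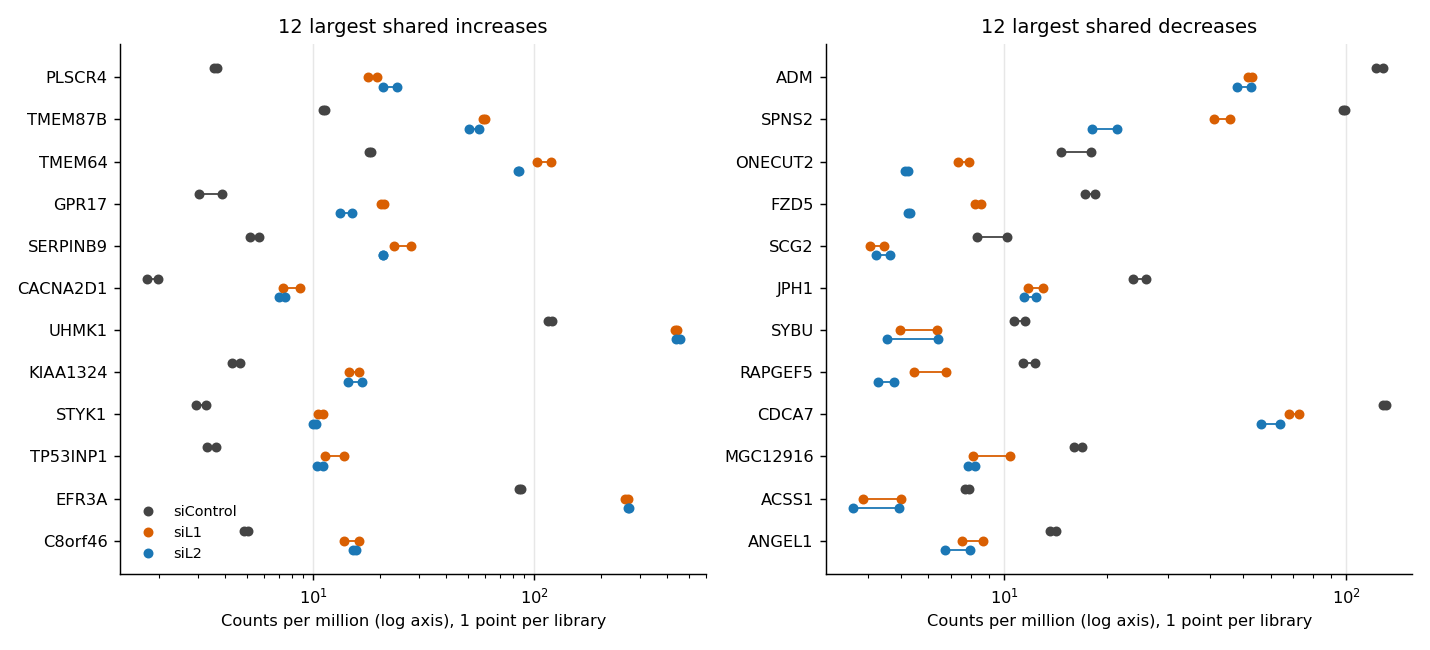
CPM on a log axis for the 12 genes with the largest shared increase (left) and the 12 with the largest shared decrease (right); each point is 1 library, and a line joins the 2 libraries of a group. The controls (grey) lie apart from siL1 (orange) and siL2 (blue) in every gene, as the rule requires, and SPNS2 and FZD5 also keep siL1 and siL2 apart.

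Among the largest shared decreases, ADM led. It encodes adrenomedullin, a vasodilator peptide known as a hypoxia-responsive gene, and stood at 122 and 128 CPM with siControl against 51.4 and 53 with siL1 and 47.9 and 52.6 with siL2. Its log2 fold changes were -1.25 ± 0.057 with siL1 and -1.32 ± 0.057 with siL2 (SE), with siL1 and siL2 values that overlapped. SPNS2, an exporter of sphingosine-1-phosphate, stood at 99.2 and 97.8 CPM with siControl, 45.7 and 41.1 with siL1, and 21.4 and 18 with siL2, lowest with siL2. ONECUT2, a homeodomain transcription factor, stood at 17.9 and 14.7 CPM with siControl against 7.87 and 7.34 with siL1 and 5.12 and 5.24 with siL2. FZD5, a Wnt receptor, stood at 18.5 and 17.2 CPM with siControl, 8.55 and 8.24 with siL1, and 5.23 and 5.32 with siL2; in both genes the siL2 libraries were again below those of siL1.

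The others of the 12 largest decreases were likewise of various functions. SCG2, the secretogranin of dense-core vesicles, stood at 8.30 and 10.2 CPM with siControl against 4.04 and 4.46 with siL1 and 4.63 and 4.22 with siL2, and JPH1, a junctophilin that ties the plasma membrane to the endoplasmic reticulum, at 25.9 and 23.7 CPM with siControl, 11.7 and 12.9 with siL1, and 11.4 and 12.4 with siL2. SYBU, a linker of cargo to kinesin, stood at 11.5 and 10.7 CPM with siControl against 6.34 and 4.95 with siL1 and 6.39 and 4.55 with siL2, where the 2 libraries of each siRNA lay well apart. CDCA7, a nuclear protein that works with the remodeller HELLS, was the most abundant of the group at 130.4 and 128 CPM with siControl, 72.7 and 67.9 with siL1, and 64.2 and 56.4 with siL2. RAPGEF5, MGC12916, ACSS1 and ANGEL1 made up the rest, and RAPGEF5 had log2 fold changes of -0.95 and -1.39 with siL1 and siL2.

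ONECUT2, FZD5 and CDCA7 each held a different heptamer, GTTACAA, in the 3′ UTR. The heptamers did not sort these genes by direction: ONECUT2 also held both of the TACATTT pair and FZD5 held ACATTTA, and UHMK1, among the largest increases, held GTTACAA as well. It is shown in the same way at chr18:57482793-57482819 (plus strand), chr2:207763227-207763253 (minus strand) and chr2:173368221-173368247 (plus strand) of GRCh38. In these 3 genes the siL2 values were below those of siL1, as they were in SPNS2 and RAPGEF5, which held no GTTACAA.
ONECUT2: actgtaatccGTTACAAcaaataaatt
FZD5: acttcatgttGTTACAAactatgtata
CDCA7: ttgcgcttatGTTACAAgttgttgtca

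The clearest shared direction across a function was in the making of ribosomes. Of 75 tested genes for ribosome biogenesis and RNA polymerase I, 61 were lower (81.3%) and 2 higher (2.67%), beside 22.9% and 22% of all tested genes. The list's median log2 fold change was -0.25 with siL1 and -0.33 with siL2. RRS1, needed for the large subunit, stood at 130.2 and 123 CPM with siControl against 53.4 and 54.5 with siL1 and 81.4 and 81.8 with siL2, the largest shared decrease of the list. HEATR1, a component of the small-subunit processome, stood at 119.5 and 107 CPM with siControl, 74.5 and 77.7 with siL1, and 61.4 and 61.7 with siL2. GRWD1, a WD-repeat protein of pre-ribosomes, stood at 163 and 174 CPM with siControl against 109 and 110.3 with siL1 and 115 and 121 with siL2. POLR1B, the second-largest subunit of RNA polymerase I, stood at 96.9 and 95 CPM with siControl, 71.3 and 69 with siL1, and 68.3 and 61.4 with siL2. The 2 exceptions were RRN3, the initiation factor that brings the polymerase to ribosomal DNA, and the helicase DDX21. On the log2 scale RRN3 had 0.31 and 0.40 with siL1 and siL2, and DDX21 had 0.20 and 0.38. RRN3 held both of the TACATTT pair and DDX21 TACATTT alone in the 3′ UTR. At least 1 of the pair was found in 35.1% of all tested genes with a 3′ UTR. Of the 61 lower members, 47 had no annotated copy of the pair or GTTACAA. Apart from RRS1, the shared decreases of this list were below 1.5-fold.

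**Figure D3:**
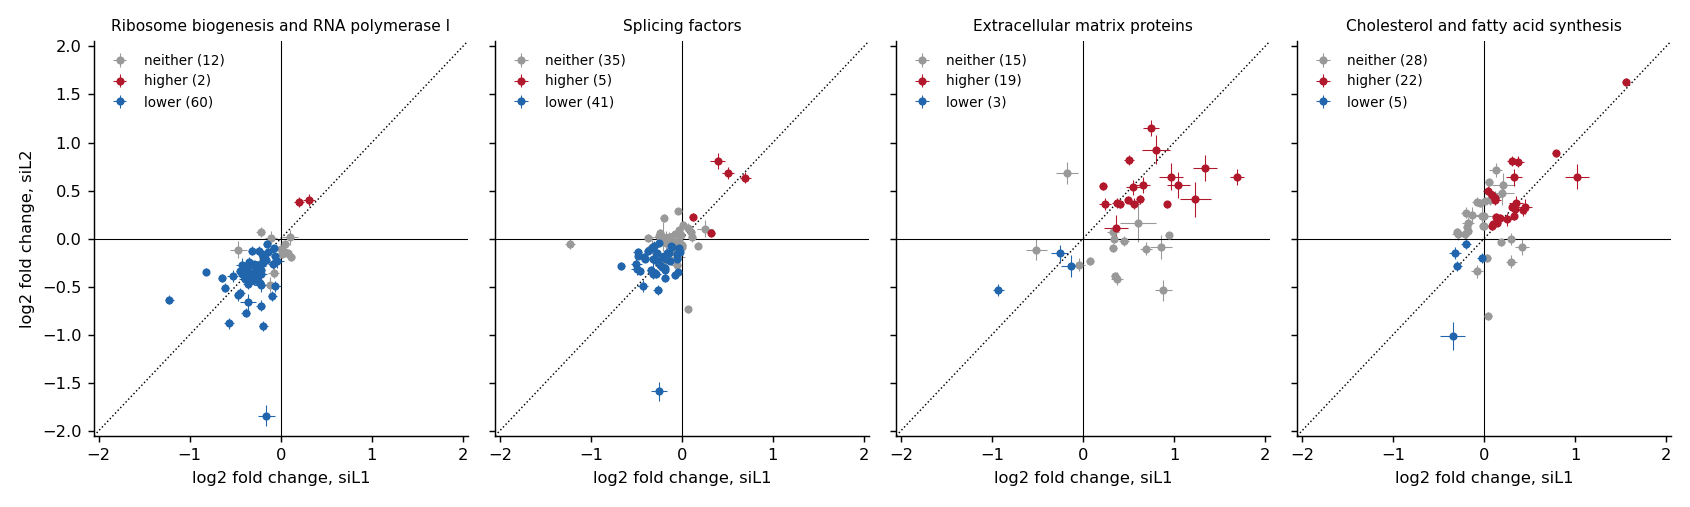
Each point is 1 gene of a list that averaged 5 CPM or more, with its log2 fold change with siL1 (x axis) and with siL2 (y axis), both against the same controls; bars are SE and the dotted line marks equal change. In the ribosome biogenesis panel 60 of the points are lower, in the splicing panel 41, while the matrix and lipid panels hold 19 and 22 higher points.

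Genes that use ribosomes ran the same way at smaller size. Of 69 translation factors and tRNA synthetases, 37 were lower and 3 higher, with median log2 fold changes of -0.11 with siL1 and -0.14 with siL2. DARS, the aspartyl-tRNA synthetase, stood at 202 and 213 CPM with siControl against 116 and 113 with siL1 and 125 and 129 with siL2. EIF5B, which joins the ribosomal subunits, stood at 505 and 495 CPM with siControl, 319 and 337 with siL1, and 379 and 388 with siL2, and EIF4A2, an RNA helicase of initiation, at 487 and 465 CPM with siControl against 361 and 319.6 with siL1 and 385 and 338 with siL2. Of 76 mitochondrial ribosomal protein genes, 39 were lower (51.3%) and 5 higher, with medians of -0.14 with siL1 and -0.14 with siL2. MRPS26 stood at 65.1 and 61.4 CPM with siControl, 44.4 and 40.6 with siL1, and 41.7 and 41.3 with siL2, and MRPL4 at 112 and 109 CPM with siControl against 73.6 and 65.9 with siL1 and 82.9 and 78 with siL2, so the decreases were found in both subunits of the mitochondrial ribosome.

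The structural proteins of the cytosolic ribosome did not share the extent of this. Of 78 tested, 19 were lower (24.4%), close to the 22.9% of all tested genes, and 0 were higher; the medians were -0.012 with siL1 and -0.12 with siL2. RPS25 stood at 226 and 237 CPM with siControl, 194 and 204 with siL1, and 188 and 191 with siL2. These genes have many processed pseudogenes, and how reads shared with them were counted is not given in the sources used here. The count also depends on a control library: without the first one, lower exceeded higher by 41 genes instead of 19. Of 65 heat shock and proteasome genes, 23 were lower and 9 higher, an excess of 14 that was 7 with upper quartile scaling. HSPD1, the mitochondrial chaperonin, stood at 754 and 748 CPM with siControl against 627 and 619 with siL1 and 544 and 529 with siL2, whereas the small heat shock gene HSPB1 was higher at 62.5 and 57.9 CPM with siControl, 133 and 132 with siL1, and 108 and 105 with siL2.

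RNA processing was lower as well. Of 84 splicing factors, 42 were lower (50%) and 5 higher (5.95%), with medians of -0.16 with siL1 and -0.14 with siL2. PRPF19, the ubiquitin ligase of the spliceosome's Prp19 complex, stood at 283 and 287 CPM with siControl against 210.4 and 202 with siL1 and 226 in both libraries with siL2. PRPF3, a protein of the U4/U6 particle, stood at 58.6 and 62.4 CPM with siControl, 44.8 and 44.6 with siL1, and 45.4 and 41 with siL2. The higher members were SNRNP27, MBNL1, MBNL2, SNRPG and SF3B4; SNRNP27 stood at 41.9 and 43.9 CPM with siControl against 67 and 71.7 with siL1 and 66.1 and 67.4 with siL2. Of 32 genes of the microRNA and RNA interference machinery, 13 were lower and 3 higher. DROSHA, the nuclear enzyme that cuts primary microRNAs, stood at 199.9 and 193 CPM with siControl, 146 and 136 with siL1, and 163 and 150.2 with siL2, and XPO5, the exporter of their precursors, at 277 and 275 CPM with siControl against 198 and 196 with siL1 and 221 and 223 with siL2. DICER1, the cytoplasmic enzyme of the next step, ran the opposite way at 170.4 and 155 CPM with siControl, 247 and 277 with siL1, and 288 and 295 with siL2. CNOT6 and DCP2, of deadenylation and decapping, were the other 2 higher ones, and all 3 held TACATTT in the 3′ UTR.

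Proliferation genes held few higher members, while their lower members were near the share of all tested genes. Of 72 G2/M and mitosis genes, 20 were lower (27.8%, beside 22.9% of all tested genes) and 3 higher (4.17%, beside 22%); the medians were -0.25 with siL1 and 0.00036 with siL2. PLK1, the mitotic kinase, stood at 235 and 255 CPM with siControl against 182 and 191 with siL1 and 194 and 212 with siL2. CDC25A, the phosphatase that activates cyclin-dependent kinases, stood at 106 and 114 CPM with siControl, 81.8 and 92.6 with siL1, and 83.8 and 94.5 with siL2. CENPK, CENPA and ANLN were the higher ones; CENPK, of the inner kinetochore, stood at 37.5 and 41.7 CPM with siControl against 66.8 and 63.1 with siL1 and 89 and 89.7 with siL2. Lower exceeded higher by 17 genes, by 29 without the first control library and by 26 without the second siL2 library.

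Of 73 replication and G1/S genes, 17 were lower and 9 higher, which for the lower ones (23.3%) is near the 22.9% of all tested genes. MCM3, of the replicative helicase, stood at 629 and 659 CPM with siControl, 477 and 486 with siL1, and 554 and 567 with siL2, and CCNE1, encoding cyclin E1, at 22 and 19 CPM with siControl against 9.70 and 9.01 with siL1 and 13.9 and 13.8 with siL2. CDK6, the G1 kinase, ran upward at 132 and 126 CPM with siControl, 209 and 225 with siL1, and 401 and 425 with siL2, furthest with siL2, and CCNE2, encoding cyclin E2, also stood above the controls, with 0.41 and 0.76 on the log2 scale. Of 72 DNA repair genes, 21 were lower (29.2%) and 5 higher (6.94%). LIG3, the ligase of base excision repair, stood at 44 and 41.1 CPM with siControl against 26.5 and 23.6 with siL1 and 31.2 and 29.8 with siL2, and UNG, the uracil glycosylase, at 173 and 185 CPM with siControl, 136 and 142 with siL1, and 138 and 139.8 with siL2. Lower exceeded higher by 16 repair genes, and by 28 without the second control library. Among 38 genes of cell cycle brakes and DNA damage response, 10 were higher and 7 lower. CDKN1A, the p21 inhibitor of cyclin-dependent kinases, stood at 29.1 and 32.4 CPM with siControl against 54.3 and 60.4 with siL1 and 43 and 45.1 with siL2, and CCNG2, an atypical cyclin, at 6.03 and 7.24 CPM with siControl, 14.3 and 14.2 with siL1, and 23.9 and 22.9 with siL2.

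Chromatin genes other than KDM1A held fewer higher members than all tested genes. Of 77 histone methylation genes, 22 were lower (28.6%), not far from the 22.9% of all tested genes, and 8 higher (10.4%, beside 22%). EZH2, the methylase of Polycomb complex PRC2, stood at 76.5 and 84.5 CPM with siControl against 55.1 and 54.6 with siL1 and 56.6 and 61.3 with siL2, and KDM2B, a demethylase that brings PRC1 variants to CpG islands, at 84.3 and 80.5 CPM with siControl, 53.4 in both libraries with siL1, and 58.7 and 57.8 with siL2. SETD7, a lysine methylase, stood above the controls at 100.2 and 99.5 CPM with siControl against 196 and 198 with siL1 and 176 and 170.1 with siL2, and so did the demethylase PHF2 at 54.4 and 48.8 CPM with siControl, 87 and 82.9 with siL1, and 87.5 and 80.7 with siL2. Of 55 genes of DNA methylation, remodelling and acetylation, 19 were lower (34.5%) and 8 higher (14.5%). HIRA, the chaperone of histone H3.3, stood at 128 and 123 CPM with siControl against 86.6 and 82.8 with siL1 and 88.2 and 87.4 with siL2, and the acetylase KAT2A at 114 and 115 CPM with siControl, 88.6 and 92.4 with siL1, and 86 and 83.3 with siL2, while its paralog KAT2B was higher at 41.9 and 39.5 CPM with siControl against 52.6 and 54.5 with siL1 and 59.9 and 61.2 with siL2. Without the second control library, lower exceeded higher by 24 histone methylation genes instead of 14 and by 17 genes of the other list instead of 11.

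The partners of LSD1 themselves were split. Of 44 genes of LSD1 and histone deacetylase complexes, 10 were lower (22.7%) and 8 higher (18.2%), near the shares of all tested genes. GATAD2A, of NuRD, stood at 281 and 290.3 CPM with siControl, 189 and 185 with siL1, and 223 and 227 with siL2. SNAI2 and SNAI1, repressors that recruit LSD1 through their SNAG domain, were higher; SNAI2 stood at 8.57 and 11.3 CPM with siControl against 17.4 and 19.6 with siL1 and 14.6 and 16.1 with siL2 and SNAI1 at 4.22 and 3.94 CPM with siControl, 6.59 and 7.51 with siL1, and 5.90 and 6.21 with siL2. REST, which recruits CoREST to neuronal genes, stood at 50.4 and 50.3 CPM with siControl against 61.7 and 63.3 with siL1 and 69.1 and 68 with siL2. Of 22 tested neuronal targets of REST and CoREST, 7 were higher (31.8%) and 3 lower (13.6%), with medians of 0.16 with siL1 and -0.061 with siL2; the excess of 4 was 2 when a mean level of 1 CPM was required. L1CAM, a neural adhesion molecule, stood at 21.4 and 22.1 CPM with siControl, 36.4 and 37.1 with siL1, and 29.8 and 29 with siL2. Of 13 tested replication-dependent histone genes, 5 were lower and 0 higher, and HIST1H1C, a linker histone, stood at 28.8 and 29.6 CPM with siControl against 16.3 and 16.2 with siL1 and 16.8 and 20.1 with siL2. These histone transcripts mostly lack a poly(A) tail, and 13 of the 49 listed passed the filter.

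Matrix genes were among those with the most higher members. Of 46 extracellular matrix genes, 23 were higher (50%) and 3 lower (6.52%), with medians of 0.47 with siL1 and 0.36 with siL2. TNC, the matrix glycoprotein tenascin C, stood at 20.002 and 20.3 CPM with siControl, 31.7 and 35.7 with siL1, and 42.2 and 47.3 with siL2. SPARC, a collagen-binding matricellular protein, stood at 5.44 and 6.22 CPM with siControl against 13.6 and 15.9 with siL1 and 9.15 and 10.4 with siL2, and COL5A1, a fibrillar collagen chain, at 22.7 and 20.5 CPM with siControl, 65.7 and 73.6 with siL1, and 32.8 and 34.6 with siL2; both were higher with siL1 than with siL2. COL8A1, a network-forming collagen, was the main exception at 48.8 and 48.4 CPM with siControl against 25.3 and 25.6 with siL1 and 33.5 and 33.8 with siL2.

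Proteases and their inhibitors were higher together. Of 42 genes for matrix proteases and collagen crosslinking, 22 were higher (52.4%) and 3 lower (7.14%). PLAU, the urokinase that activates plasminogen, stood at 112 and 124 CPM with siControl, 185 and 202 with siL1, and 165 and 179 with siL2. Its receptor PLAUR stood at 53.8 and 62.1 CPM with siControl against 108 and 109 with siL1 and 76.6 and 72.7 with siL2, with siL1 well above siL2. ADAM8, a membrane metalloprotease, stood at 11.5 and 12.4 CPM with siControl, 20.7 and 21.4 with siL1, and 20.8 and 20.5 with siL2. MMP1, the interstitial collagenase, ran the opposite way at 9.12 and 12.9 CPM with siControl against 6.25 and 7.67 with siL1 and 2.24 and 3.53 with siL2. Of 19 protease inhibitors, 11 were higher (57.9%) and 0 lower. TIMP2, an inhibitor of matrix metalloproteases, stood at 259 and 247 CPM with siControl, 464 and 474 with siL1, and 356 and 343 with siL2, and TIMP4 at 2.63 and 3.85 CPM with siControl against 8.51 and 9.21 with siL1 and 8.33 and 9.78 with siL2. RECK, a membrane-anchored inhibitor, stood at 28.7 and 25.7 CPM with siControl, 47.1 and 44.8 with siL1, and 35 and 33.3 with siL2.

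The receptors that bind this matrix ran along. Of 40 integrin and focal adhesion genes, 18 were higher (45%) and 3 lower. ITGAV, the alpha chain of vitronectin receptors, stood at 106 and 98.8 CPM with siControl against 207 and 206 with siL1 and 190.1 and 187 with siL2, and ITGA3, the alpha chain of a laminin receptor, at 358 and 349 CPM with siControl, 536 and 524 with siL1, and 499 and 494 with siL2. ITGB2, the beta chain typical of leukocytes, stood at 4.40 and 5.08 CPM with siControl against 15.3 and 16 with siL1 and 12.7 and 11.9 with siL2, while the pan-leukocyte marker PTPRC was at or near 0. CD82, a tetraspanin known as a suppressor of metastasis, stood at 30.8 and 36.3 CPM with siControl, 101 and 106 with siL1, and 71.4 and 70.5 with siL2. TLN2, PTK2 and FERMT1 were the 3 lower members; PTK2, the focal adhesion kinase, had log2 fold changes of -0.15 and -0.30.

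Growth factor pathways leaned the same way. Of 44 genes of TGF-beta and BMP signalling, 20 were higher (45.5%) and 6 lower (13.6%). By role, the ligand TGFB2 stood at 36.8 and 34.7 CPM with siControl against 57.9 and 63.9 with siL1 and 72 and 59.8 with siL2, the type I receptor TGFBR1 at 27.2 and 30.6 CPM with siControl, 88.2 and 95.7 with siL1, and 71.1 and 67.6 with siL2 and the signal transducer SMAD5 at 53.6 and 57.7 CPM with siControl against 115 and 111 with siL1 and 108 and 106 with siL2. LTBP2, of the family of latent TGF-beta binding proteins, stood at 66.9 and 66.7 CPM with siControl, 142 and 145 with siL1, and 100.1 and 101 with siL2. SMAD1, the other BMP transducer named, was lower at 21.4 and 20.6 CPM with siControl against 12.7 and 11.5 with siL1 and 12.8 and 12.6 with siL2, so SMAD1 and SMAD5 moved apart. The inhibitors TGIF2 and SKI were also lower, with -0.38 and -0.40 and -0.54 and -0.19 on the log2 scale with siL1 and siL2.

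In the Hippo list 15 of 36 genes were higher (41.7%) and 6 lower (16.7%). The kinases LATS2 and LATS1, which restrain YAP, stood at 42.4 and 44.7 CPM with siControl, 91.2 and 103 with siL1, and 74.2 and 76.7 with siL2, and at 27.8 and 26 CPM with siControl against 40.6 and 42.5 with siL1 and 53.1 and 52 with siL2. The partner factor TEAD1 stood at 294 and 289 CPM with siControl, 488 and 499 with siL1, and 418 and 399 with siL2, whereas TEAD4 was lower at 99 and 94.7 CPM with siControl against 74.8 and 75.3 with siL1 and 76.4 and 78.7 with siL2. Of the 14 genes of this list with no annotated copy of the 3 heptamers (the TACATTT pair and GTTACAA), 4 were higher (28.6%) and 4 lower (28.6%). Over all tested genes with no annotated copy, 19.1% were higher and 24% lower. Genes without an annotated 3′ UTR count among those with no copy, here and below. With 14 genes, the equal counts cannot settle whether the lean to higher members held in that subset. Of 46 receptor tyrosine kinases and ligands, 19 were higher (41.3%) and 2 lower (4.35%). The ligand FGF5 stood at 29.6 and 28.4 CPM with siControl, 80.05 and 81.9 with siL1, and 67.7 and 73.1 with siL2, the collagen receptor DDR1 at 11.7 and 9.10 CPM with siControl against 25.3 and 22.9 with siL1 and 23 and 23.6 with siL2 and the receptor ROR1 at 15.8 and 15.9 CPM with siControl, 28 and 32.7 with siL1, and 22.9 and 21.4 with siL2. EFNB1 and NRG1 were the lower members, and NRG1, a ligand of the ERBB family, stood at 66 and 65.8 CPM with siControl against 43.6 and 42 with siL1 and 62 and 59.1 with siL2.

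Secreted signals were higher more often than lower. Of 50 cytokine and NF-kappaB genes, 16 were higher (32%) and 4 lower (8%), and without the second control library higher exceeded lower by 20 genes instead of 12. IL11, a cytokine of the IL6 family, stood at 12.9 and 18.1 CPM with siControl, 54.5 and 62.9 with siL1, and 26.1 and 30.7 with siL2, and CSF1, the macrophage growth factor, at 36.8 and 38.3 CPM with siControl against 55.5 and 57.3 with siL1 and 86.8 and 97 with siL2; IL11 was highest with siL1 and CSF1 with siL2. NFKB1, encoding the p105 precursor, was lower at 76.9 and 77.7 CPM with siControl, 55.3 and 59.8 with siL1, and 42.3 and 43.5 with siL2. Of 61 interferon response genes, 20 were higher (32.8%) and 6 lower (9.84%). IFIT1 stood at 15 and 17.3 CPM with siControl against 22.2 and 21 with siL1 and 27.2 and 29.3 with siL2, SAMD9 at 30.1 and 30.3 CPM with siControl, 39.3 and 39.6 with siL1, and 60.7 and 66.2 with siL2 and B2M, the light chain of MHC class I, at 553 and 576 CPM with siControl against 719 and 733 with siL1 and 708 and 724 with siL2.

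In metabolism, the lists of lipid synthesis and glycolysis held more higher than lower members, and those of mitochondrial oxidation more lower ones. Of 56 genes of cholesterol and fatty acid synthesis, 22 were higher (39.3%) and 5 lower (8.93%), with medians of 0.086 with siL1 and 0.23 with siL2. ACLY, the enzyme that makes cytosolic acetyl-CoA from citrate, stood at 198 and 211 CPM with siControl, 602 and 595 with siL1, and 643 and 627 with siL2. Its log2 fold changes were 1.55 ± 0.039 with siL1 and 1.63 ± 0.039 with siL2 (SE), so all 4 siRNA libraries lay together. ELOVL5, an elongase of polyunsaturated fatty acids, stood at 261 and 273 CPM with siControl against 453 and 466 with siL1 and 488 and 504 with siL2. SCD5, a desaturase, was lower at 34.4 and 30.5 CPM with siControl, 28.9 and 22.1 with siL1, and 18.8 and 13.2 with siL2.

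Of 53 genes of glycolysis, lactate and pyruvate control, 19 were higher (35.8%) and 7 lower (13.2%), with medians of 0.17 with siL1 and -0.0073 with siL2, so the median lay near 0 with siL2. SLC2A3, the glucose transporter GLUT3, stood at 29.8 and 30.8 CPM with siControl against 46.5 and 52.7 with siL1 and 51.9 and 54.9 with siL2, and PFKFB4, which sets the level of fructose 2,6-bisphosphate, at 12.7 and 9.86 CPM with siControl, 23.5 and 25.8 with siL1, and 19.4 and 17 with siL2. DLAT and PDHX, of the pyruvate dehydrogenase complex, were lower, with -0.35 and -0.20 and -0.21 and -0.29 on the log2 scale. Of 42 hypoxia response genes, 16 were higher (38.1%) and 6 lower (14.3%), among the lower ones ADM and the thioredoxin inhibitor TXNIP, which stood at 182 and 189 CPM with siControl against 124 and 131 with siL1 and 153 and 155 with siL2. The hypoxia medians were 0.42 with siL1 and 0.022 with siL2, so the median of this list lay near 0 with siL2.

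Of 60 genes of the TCA cycle and fatty acid oxidation, 19 were lower (31.7%) and 11 higher (18.3%). IDH1, which makes NADPH in the cytosol, stood at 103 and 100.4 CPM with siControl, 140.4 and 139 with siL1, and 157 and 158 with siL2, and PPRC1, a coactivator of the PGC-1 family, was lower at 138 and 149 CPM with siControl against 97.8 and 106 with siL1 and 106 and 111 with siL2. Of 72 nuclear-encoded respiratory chain subunits, 22 were lower (30.6%) and 11 higher (15.3%). NDUFB2, of complex I, stood at 33.9 and 32.8 CPM with siControl, 21.2 and 18.5 with siL1, and 13.8 and 11.6 with siL2, and the other named subunits moved by less, as in NDUFS6 with -0.40 and -0.23. The excess of lower over higher subunits was 11 genes, 17 without the first control library and 7 without the second, and 7 with upper quartile scaling.

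Autophagy and lysosome genes leaned higher, and membrane traffic genes did so less. Of 77 autophagy and lysosome genes, 30 were higher (39%) and 8 lower (10.4%), beside 22% and 22.9% of all tested genes. GABARAPL1, which coats autophagosome membranes, stood at 13.6 and 14.2 CPM with siControl against 24.1 and 25.8 with siL1 and 35.7 and 35.4 with siL2, and ATG12, of the conjugation system, at 46.5 and 48.6 CPM with siControl, 62.2 and 60.04 with siL1, and 64.9 and 65.3 with siL2. CTSB, a lysosomal protease, stood at 162 and 159 CPM with siControl against 227 and 218 with siL1 and 233 and 226 with siL2. ATG4B, which processes the membrane-coating proteins, was lower at 55.5 and 58 CPM with siControl, 27.9 and 27.8 with siL1, and 45.6 and 49.9 with siL2. Of 88 Golgi, secretory and endosomal traffic genes, 25 were higher (28.4%), not far from the 22% of all tested genes, and 11 lower (12.5%, beside 22.9%). The medians of this list were 0.039 with siL1 and 0.02 with siL2. RAB18, a GTPase of lipid droplets and the endoplasmic reticulum, stood at 45.9 and 50.4 CPM with siControl against 115 in both libraries with siL1 and 101 in both libraries with siL2, and TMED7, a cargo receptor of the early secretory path, at 113 and 112 CPM with siControl, 211 and 213 with siL1, and 177 in both libraries with siL2. GCC2, a Golgi tether, was lower at 75.2 and 67.5 CPM with siControl against 27.7 in both libraries with siL1 and 55.8 and 53.5 with siL2. Of the 40 genes of this list with no annotated copy of the 3 heptamers, 9 were higher (22.5%) and 8 lower (20%). Over all tested genes with no annotated copy, the shares were 19.1% and 24%.

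Channels and receptors at the cell surface showed the same lean at low levels. Of 70 ion channel and G protein-coupled receptor genes, 28 were higher (40%) and 7 lower (10%). CLIC4, of the chloride intracellular channel family, was the abundant one at 223 and 224 CPM with siControl, 552 and 553 with siL1, and 568 and 564 with siL2. GPR56, an adhesion receptor, stood at 40.6 and 45 CPM with siControl against 109 and 111 with siL1 and 83.1 and 89.3 with siL2, and P2RX5, an ATP-gated channel, was lower at 18.4 and 17.1 CPM with siControl, 13.3 and 12.8 with siL1, and 8.56 and 8.40 with siL2. Of all tested genes with a mean below 1 CPM, 19.1% were higher and 7.95% lower, against 23.7% and 29.6% of those at 100 CPM and over, so low genes met the rule downward far less often, while the share of higher ones differed less. Of 51 antioxidant and metal response genes, 18 were higher and 7 lower; CAT, encoding catalase, stood at 63.4 and 63.3 CPM with siControl against 97.6 and 95.5 with siL1 and 81.3 and 83 with siL2. HMOX1, encoding heme oxygenase, was lower at 26.9 and 28.9 CPM with siControl, 24.9 and 25.7 with siL1, and 14 and 13.8 with siL2. Without the first control library, higher exceeded lower by 7 of these antioxidant genes instead of 11.

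Several functions were split in both directions. Of 48 EMT and epithelial junction genes, 17 were higher and 10 lower. The junction genes JUP and CLDN4 were higher, with 0.72 and 1.06 and 0.66 and 0.75 on the log2 scale with siL1 and siL2, and DSP and PKP2 of the desmosome were lower, with -0.57 and -0.52 and -0.47 and -0.26. Of 48 Notch and Wnt genes, 11 were higher and 11 lower, with NOTCH2 at 242 and 215 CPM with siControl against 319 and 309 with siL1 and 332 and 305 with siL2. The receptors FZD6 and FZD7 stood above the controls (0.41 and 0.56 and 0.53 and 0.42) while FZD5 stood below. Of 98 solute carriers, 27 were higher and 21 lower. SLC7A5, the large neutral amino acid transporter, was lower at 389 and 429 CPM with siControl, 232 and 255 with siL1, and 227 and 249 with siL2, and SLC39A1, a zinc transporter, was higher at 104 and 105 CPM with siControl against 175 and 172 with siL1 and 185 and 187 with siL2.

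Of 104 ubiquitin ligases and deubiquitinases, 21 were higher (20.2%) and 30 lower (28.8%). Of the 44 with no annotated copy of the 3 heptamers, 3 were higher (6.82%) and 16 lower (36.4%), beside 19.1% and 24% of all such tested genes. Carriers of a heptamer were found in both directions. RNF11, which held TACATTT, stood at 60.7 and 62.2 CPM with siControl, 178 and 182 with siL1, and 165 and 166 with siL2, and FBXO45, which held GTTACAA, at 181 and 188 CPM with siControl against 126 in both libraries with siL1 and 100.3 and 104 with siL2. The lists for the unfolded protein response (15 of 50 higher, 8 lower), the actin cytoskeleton (21 of 77 and 15), MAPK and PI3K feedback (17 of 67 and 11), the BCL2 family (12 of 45 and 8) and nuclear receptors (12 of 47 and 9) held members of both directions. AKT1 stood at 208 and 206 CPM with siControl, 333 and 324 with siL1, and 289 and 278 with siL2, TNFRSF10D, a decoy receptor for TRAIL, at 89.8 and 97.1 CPM with siControl against 163 and 178 with siL1 and 169 and 177 with siL2, and the pro-apoptotic BCL2L11 was lower at 25.9 and 28.6 CPM with siControl, 17.5 and 20.2 with siL1, and 17.8 and 19 with siL2.

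**Figure D4:**
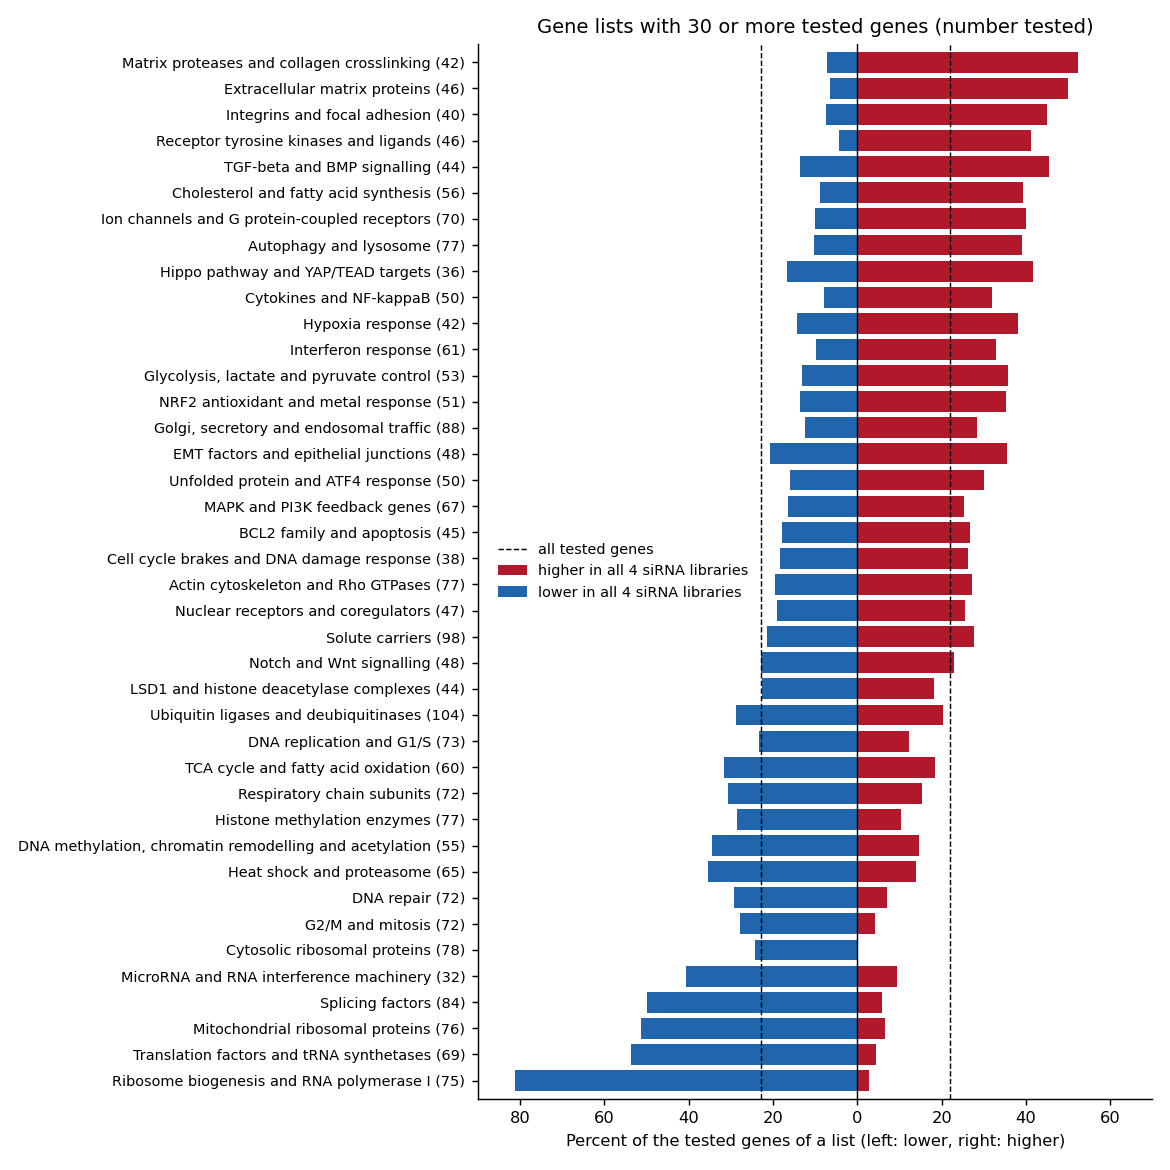
Bars give, for each list with 30 or more tested genes (number in brackets), the percent of genes higher (red, to the right) and lower (blue, to the left) in all 4 siRNA libraries; dashed lines mark 22% and 22.9%, the shares over all tested genes. Ribosome biogenesis reaches 81.3% lower at the bottom, and matrix proteases 52.4% higher at the top.

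Over the 43 lists together, 2435 of 2700 distinct genes were tested, and 563 were higher and 599 lower. These lists were drawn up with earlier results of the data known, so their counts describe the response and give no independent support for it. Among genes with no annotated copy of the 3 heptamers, ribosome biogenesis had 0 higher and 47 lower of 55, and splicing factors 0 higher and 24 lower of 47. Extracellular matrix had 17 higher and 3 lower of 33, and matrix proteases 18 higher and 3 lower of 30. Over all tested genes with no annotated copy, including those without an annotated 3′ UTR, 19.1% were higher and 24% lower.

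Small shared changes reached the most abundant transcripts. Among genes with a shared change below 1.2-fold, EEF2, the elongation factor that moves the ribosome along, stood at 1822 and 1883 CPM with siControl against 1605 and 1705 with siL1 and 1635 and 1709.8 with siL2. HSP90AB1, a cytosolic chaperone, stood at 2044 and 1977 CPM with siControl, 1577 and 1544 with siL1, and 1740.5 and 1649 with siL2. TUBB, a beta-tubulin, stood at 2235 and 2303 CPM with siControl against 1882 and 1901 with siL1 and 2061 and 2085 with siL2, and CANX, the chaperone calnexin, ran upward at 1948 and 1962 CPM with siControl, 2278 and 2363 with siL1, and 2108 and 2159.9 with siL2. SCD, the desaturase that makes oleate, stood at 1706 and 1719 CPM with siControl against 1802 and 1823 with siL1 and 2391 and 2322 with siL2, furthest above the controls with siL2. TMSB10, an actin-binding peptide, stood at 1251 and 1252 CPM with siControl, 1519 and 1508 with siL1, and 1441 and 1436 with siL2. ENO1 and ACTB show how fine the rule cuts. ACTB, encoding beta-actin, stood at 5305 and 5114 CPM with siControl against 5022 and 5044 with siL1 and 5069 and 5050.2 with siL2, and was no longer lower under upper quartile scaling. ENO1, a glycolytic enzyme, stood at 2191 and 2265 CPM with siControl, 2618 and 2695 with siL1, and 2270.5 and 2290.2 with siL2, and was no longer higher under TMM scaling or DESeq2 size factors.

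Markers of other cell types were looked up beside these lists, since in bulk RNA more cells of a type and more RNA per cell cannot be told apart. Of 27 blood cell markers 3 were tested, 1 was higher and 0 lower; 10 were at 0 in all libraries, among them CD2 and MS4A1. Their summed level was 215 to 226 CPM in the controls, 209.8 to 227 CPM with siL1 and 270.5 to 275 CPM with siL2, nearly all of it CD68, a lysosomal protein that is not limited to blood cells. Of 22 fibroblast and endothelial markers 11 were tested, 7 were higher and 0 lower, with sums of 352 to 358 CPM, 471 to 480.4 CPM and 409 to 418 CPM. Most of the sum was TIE1 (191 and 190 CPM with siControl) and ENG (149 and 146), which were both higher. The fibroblast genes COL1A2, DCN and LUM, and also PDPN, were at 0 in all libraries. COL1A1 stood at 6.58 and 5.25 CPM with siControl, 12.4 and 12 with siL1, and 9.30 and 8.12 with siL2. PDGFRB stood at 0.77 and 0.89 CPM with siControl, 6.47 and 7.91 with siL1, and 3.81 and 3.65 with siL2. The part of the markers present in the matrix lists was not tested.

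The siL2 against siL1 comparison asks how far the members agree in size. The rule did not use this contrast, but it used the same siL1 and siL2 values. A member had to lie on the same side of the controls with both siRNAs, so the shares below are shaped by that choice. Of the tested genes that met neither direction, 27.3% were higher and 25.6% lower with siL2. Among all 13322 tested genes, 3088 (23.2%) were higher with siL2 and 3152 (23.7%) lower with siL2 than with siL1, at an adjusted p below 0.05 in edgeR's quasi-likelihood test. Of the 2930 higher members, 445 (15.2%) were higher and 716 (24.4%) lower with siL2, so where the increases differed they were more often smaller with siL2. Of the 3052 lower members, 639 (20.9%) were higher and 556 (18.2%) lower with siL2. In all, 2356 of 5982 members differed between the siRNAs.

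The counts of differing members varied between functions, and the shares over all members stand beside them here. Of all higher members, 24.4% were lower and 15.2% higher with siL2 than with siL1. Of all lower members, 18.2% were lower and 20.9% higher with siL2. In the protease list 14 of the 22 higher members were lower with siL2 than with siL1 and 2 were higher; for hypoxia these were 12 and 0 of 16, for receptor tyrosine kinases 11 and 0 of 19, and for extracellular matrix 11 and 3 of 23. PLAUR differed by -0.55 ± 0.06 (SE; adjusted p = 1.02e-05), TIMP2 by -0.43 ± 0.038 (SE; adjusted p = 1.73e-06) and COL5A1 by -1.06 ± 0.072 (SE; adjusted p = 1.84e-07). Lipid synthesis ran the other way, with 8 of 22 higher members further up with siL2 and 2 less so; STARD4, a sterol carrier, differed by 0.42 ± 0.053 (SE; adjusted p = 3.46e-05). Among lower members, siL1 values were the lower ones in DNA repair (12 of 21, against 2), in replication (11 of 17, against 2) and in G2/M (9 of 20, against 2). In ribosome biogenesis siL2 values were the lower ones in 17 of 61, against 5, not far from the 23.7% of all tested genes that were lower with siL2. CCNE1 differed by 0.56 ± 0.11 (SE; adjusted p = 0.000762) and HEATR1 by -0.31 ± 0.06 (SE; adjusted p = 0.000834).

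For UHMK1, ACLY, EFR3A and ADM the siRNAs did not differ at this threshold. The log2 difference, siL2 minus siL1, was 0.02 ± 0.038 (SE; adjusted p = 0.686) for UHMK1, 0.077 ± 0.037 (SE; adjusted p = 0.107) for ACLY, 0.023 ± 0.038 (SE; adjusted p = 0.653) for EFR3A and -0.065 ± 0.06 (SE; adjusted p = 0.402) for ADM, in edgeR's quasi-likelihood test. A p that misses the threshold does not show that the siRNAs acted alike.

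The heptamers are not independent of these data, since an earlier scan of the same libraries had picked them out, so their counts are a description. Of the higher members with an annotated 3′ UTR of at least 50 bases, 1241 of 2761 (44.9%) held at least 1 of the TACATTT pair on the transcript strand, against 828 of 2868 lower members (28.9%) and 4288 of 12214 tested genes (35.1%). The 2 heptamers overlap by 6 letters, so a gene can hold both in 1 stretch. Longer 3′ UTRs hold any heptamer more often, and the higher members had a median 3′ UTR of 1580 bases against 1413 in all tested genes. Within each of 5 length classes, 27.4% to 30.7% of genes with either heptamer were higher, against 18.7% to 20.1% of genes without. The same classes had 17.9% to 22.8% lower genes with and 24.5% to 29% without them.

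Of the 2930 higher and 3052 lower members, 1648 and 2076 had no annotated copy of the 3 heptamers. Members without an annotated 3′ UTR are included in these counts. The median log2 fold changes of genes with either heptamer were 0.039 with siL1 and 0.052 with siL2, against -0.032 and -0.026 without. GTTACAA was found in 8.15% of higher, 11.1% of lower and 9.56% of all tested genes with a 3′ UTR, and in 6 of the 15 lower members of 2-fold and over. ACAGAGC, taken for comparison, was found in 18%, 18.5% and 18%. The siRNA sequences are not given in the sources used here, and the part of these heptamers in the shared changes was not tested. Promoters of 300 bases from RefSeq held TCAAGGTCA, letters bound by ERR alpha, on either strand in 6 of 2280 higher, 2 of 2477 lower and 13 of 10411 tested genes.

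**Figure D5:**
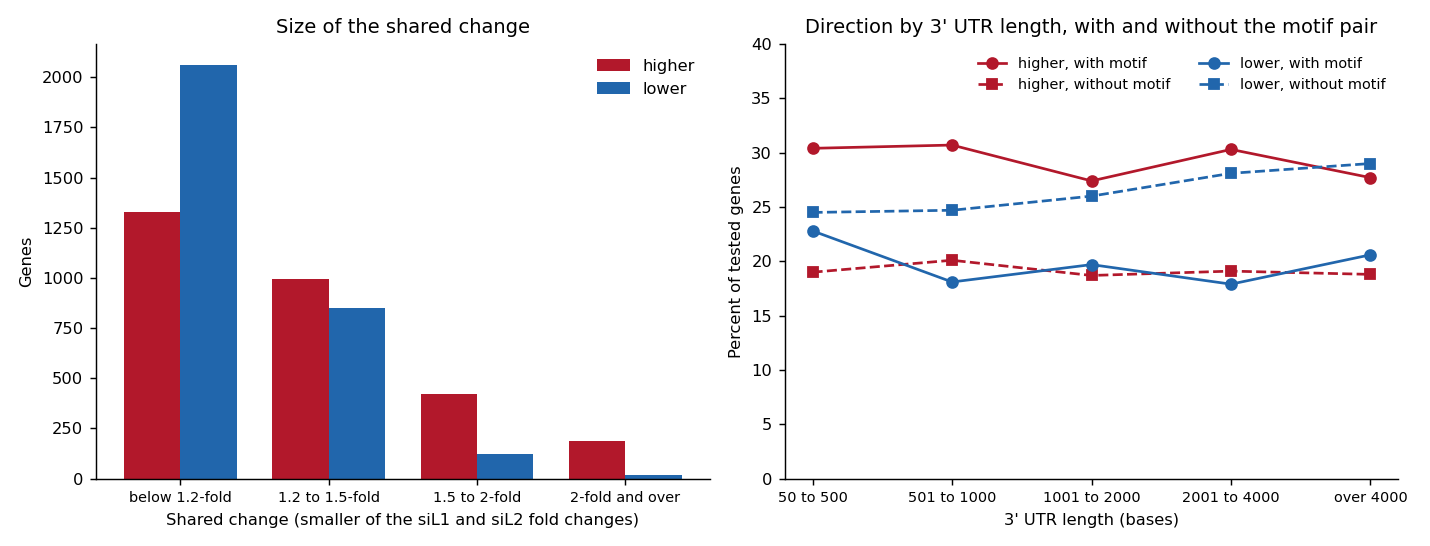
Left, the number of higher (red) and lower (blue) members in each class of shared change. Right, the percent of tested genes that were higher (red) or lower (blue) in each class of 3′ UTR length, with 1 or both of the TACATTT pair (circles, solid lines) and without (squares, dashed lines); the red circles lie between 27.4% and 30.7%, above the red squares in every class.

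Position in the genome separated the members little. By chromosome, the share of tested genes that were higher ran from 15.1% on chromosome 18 to 26.5% on chromosome 5, and the share that were lower from 19% on chromosome 19 to 28.3% on chromosome 20. Level did so more for the lower genes. The share of lower members climbed from 7.95% of genes below 1 CPM through 18.2% at 5 to 20 CPM to 29.6% at 100 CPM and over. The median mean level was 32.9 CPM for higher and 49.8 CPM for lower members, against 31.3 CPM over all tested genes. CPM is not divided by transcript length, so these levels compare genes only roughly.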

How the data were processed

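RNA-seq counts of 6 MDA-MB231 libraries were analysed, 2 each for siControl, siL1 and siL2, with samples assigned to groups by their titles. The deposited table held raw read counts per gene symbol. It also held, for each siRNA, the authors' fold change over the control, a ratio on a linear scale. An adjusted p-value from the authors stood beside each fold change. Reads were aligned with TopHat 1.3.3 to hg19, counted with HTSeq and compared with DESeq, per the submitters' processing notes; strand setting and annotation release are not given in the sources used here, so overlapping, antisense and near-identical genes cannot be told apart. The number of sample columns not used was 0.

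CPM were computed from column totals, and the rule was applied to them. Counts were fitted over all 6 libraries with edgeR 4.0.16 (R 4.3.3; filterByExpr, TMM, quasi-likelihood test, Benjamini-Hochberg adjustment, threshold 0.05, 3 residual degrees of freedom, common biological coefficient of variation 3.72%); an SE is the fold change divided by the square root of its F. The fit was tested on simulated data. Both libraries of each group differed beyond sampling noise, so none was merged. An exact permutation test of 4 against 2 libraries cannot go below p = 0.133 (two-sided). The count floor covers counting error only.

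The members and all lists were chosen with earlier results of these data known. Genes were named by a rule: the 12 largest shared changes per direction and up to 5 per direction in each list (mean of at least 5 CPM), the 6 most abundant small changes per direction, the 3 genes nearest the threshold on each side (mean of at least 50 CPM), and the 6 largest differences between siRNAs per direction; the text uses those it needs. Symbols matched GENCODE v29 or older names for 95.8% of tested genes, and 91.7% had a 3′ UTR; RefSeq promoters, 250 bases before to 50 after the start on the build of that table, were found for 78.1%. Alternatives are given in the closing section, with DESeq2 1.42.0 and limma 3.58.1. Tables were handled in Python 3.11.15.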

Additional observations from a re-analysis of the deposited data

Results flagged for a closer look

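The siRNA effects were tested against each other for every gene, and the 12 shared genes with the largest differences past an adjusted p of 0.05 (edgeR's quasi-likelihood test) are listed with the log2 difference, siL2 minus siL1. All 12 met the rule for a shared direction, but in most of them 1 siRNA carried nearly the whole change. SRM, encoding spermidine synthase, differed by -1.87 ± 0.047 (SE; adjusted p = 5.58e-11). It stood at 146 and 145 CPM with siControl against 138 and 142 with siL1 and 39.1 and 38.2 with siL2, so siL1 hardly left the control level, and under upper quartile scaling it was no longer a shared gene. RBBP9, a serine hydrolase, differed by -1.69 ± 0.066 (SE; adjusted p = 2.15e-09), and CD3EAP, a subunit of RNA polymerase I, by -1.68 ± 0.11 (SE; adjusted p = 1.15e-07). ISOC1 differed by -1.58 ± 0.069 (SE; adjusted p = 5.17e-09). All 4 of these genes held GTTACAA in the 3′ UTR, beside 9.56% of all tested genes with a 3′ UTR. These 4 genes were picked for their large differences, and the part of GTTACAA was not tested.

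RASGRF1, an exchange factor for Ras, differed by -1.59 ± 0.095 (SE; adjusted p = 5.67e-08); it stood at 10.7 and 10.8 CPM with siControl, 37.3 and 44.5 with siL1, and 13.4 and 14 with siL2, and only siL1 was far above the controls. APCDD1L differed in the same sense by -1.46 ± 0.14 (SE; adjusted p = 3.04e-06).

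Differences in the other sense were led by SLC35F3, of the solute carrier family, with 1.26 ± 0.079 (SE; adjusted p = 9.33e-08); it stood at 38.8 and 34.8 CPM with siControl against 13.7 in both libraries with siL1 and 33.3 and 32.6 with siL2. BRWD3, a bromodomain protein, differed by 1.21 ± 0.064 (SE; adjusted p = 2.15e-08) and stood at 34.9 and 30.5 CPM with siControl, 35.5 and 36.1 with siL1, and 83.4 in both libraries with siL2, and SWT1 differed by 1.15 ± 0.13 (SE; adjusted p = 1.32e-05). Both were higher genes carried by siL2. DUS2L, a tRNA dihydrouridine synthase, differed by 1.04 ± 0.075 (SE; adjusted p = 2.82e-07), NHLRC3 by 1.03 ± 0.081 (SE; adjusted p = 6.2e-07) and SPRYD3 by 0.99 ± 0.069 (SE; adjusted p = 2.08e-07); these 3 were low with siL1 and near the controls with siL2. The cause of the differences was not tested.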

How the results depend on the processing

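Requiring a gap between the nearest siRNA and control library moved the counts most. With a gap of 1.1-fold, 1719 genes were higher and 1289 lower; with 1.5-fold, 317 and 47, so higher genes were 87.1% of both instead of 49%. Calls with both siRNAs numbered 1742 and 1621 with edgeR and 1383 and 1116 with DESeq2; both demand more than the rule. Without genes holding the TACATTT pair or GTTACAA, 1648 of 8645 (19.1%) were higher and 2076 (24%) lower; the cause was not tested. Other scalings gave 2845 to 3147 higher and 2750 to 3153 lower genes, and kept at least 97.1% of the higher and 90.1% of the lower members. Leaving out 1 library gave 3149 to 3726 higher and 3332 to 3915 lower, since fewer libraries had to clear the rule, and 1752 to 2329 members that differed between the siRNAs instead of 2356. Shared changes of 2-fold and over numbered 205, and 202 to 233 without 1 library. The balance between the directions was not stable, since higher genes were 49% of both under the main setting. They were 53.4% with upper quartile scaling, 57.1% with the 1.1-fold gap, 51.8% with edgeR calls and 55.3% with DESeq2 calls. The single genes and list excesses rerun under the alternatives did not reverse direction. The Hippo excess of 9 higher genes was 0 without genes holding the heptamers. Several gene values moved by more than the spread between libraries, mostly without 1 library: GPR17 had a shared log2 change of 1.87 without the first control library and 2.21 without the second.

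Libraries with the same replicate number deviated together (r = 0.349 for siControl with siL1, 0.453 for siControl with siL2 and 0.406 for siL1 with siL2, across 10448 genes, which are not independent), but the labels give only a shared number. With a replicate block, 3056 members differed between the siRNAs; comparing each siRNA library only with the control of its own number gave 3469 higher and 3689 lower. With 2 libraries a group, depth limits the low genes most: 7.3% of higher and 2.92% of lower members had a mean below 1 CPM.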

Other observations

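Families of genes with the same symbol stem were counted after the values had been seen, for the 49 stems with at least 25 tested genes. The DDX, METTL, POLR and SNORD stems held a larger share of lower members than all tested genes (22.9%) and a smaller share of higher ones (22%). Of 36 DDX helicases 23 were lower (63.9%) and 2 higher (5.56%), with DDX21 and DDX1 the higher ones. Of 26 METTL genes, named as methyltransferase-like, 16 were lower (61.5%) and 1 higher (3.85%), METTL23. Of 30 POLR genes, subunits of the nuclear RNA polymerases, 17 were lower (56.7%) and 1 higher (3.33%), POLR3E. Of 43 SNORD genes, small nucleolar RNAs that guide modification of ribosomal RNA, 14 were lower (32.6%) and 0 higher. Their median level was 0.733 CPM, and most lie in introns of other genes, whose reads cannot be told apart here.

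The GPR, IL and TMEM stems held a larger share of higher members than all tested genes (22%) and a smaller share of lower ones (22.9%). Of 46 GPR receptor genes 21 were higher (45.7%) and 1 lower (2.17%), GPR125, at a median level of 3.98 CPM. Of 36 genes of the IL stem, interleukins and their receptors, 15 were higher (41.7%) and 3 lower (8.33%). Of 169 TMEM genes, named only as transmembrane proteins, 54 were higher (32%) and 25 lower (14.8%). Of 455 ZNF genes, zinc finger proteins, 94 were higher (20.7%) and 52 lower (11.4%), beside 22% and 22.9% of all tested genes. Their median level was 10.1 CPM, and low genes in general met the rule downward less often. The lower share was 11.7% of all tested genes at 1 to 5 CPM and 18.2% at 5 to 20 CPM. Whether the ZNF and GPR stems differ from other genes of their level was not tested. The stems named are a selection, given as counts with no test, and others had larger shares than some of them. The MRPL (51%), MRPS (48.3%) and EIF (46.3%) stems, among others, held larger shares of lower members than SNORD. The CD (43.8%), SH (39.4%) and SEC (37%) stems, among others, held larger shares of higher members than TMEM.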
